A study of Mus musculus with 48 samples.

Results

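Mouse embryonic stem cells (mESCs) that make a truncated NRDE2 were compared directly with mESCs in which the Nrde2 gene had been deleted, to see at which genes the 2 alleles left different RNA levels. All genes on the autosomes with a mean of at least 0.5 CPM (reads of a gene scaled to a common library total) over the 4 libraries compared were included, which is 14476 of the 55335 genes measured. The gene just inside this limit had a mean of 0.5 CPM and the gene just outside it 0.4999 CPM, 15366 autosomal genes with reads were below it, and 21128 autosomal genes had no read in these libraries. Nrde2d200 cells carry an edited Nrde2 gene whose protein lacks the amino-terminal 200 amino acids, and they were not treated. Nrde2-KO cells were treated during 4 d with 100 nM 4-hydroxytamoxifen (4OHT). The drug switches on a Cre recombinase, which cuts out the part of Nrde2 between loxP sites in introns 4 and 6. Untreated cells of the conditional knockout line were the wild-type (WT) reference. All cells were 129 and C57BL/6 hybrid mESCs grown in serum with LIF and 2i, the pair of kinase inhibitors that holds mESCs in the naive state. There were 2 libraries per group, made from ribosomal RNA-depleted total RNA, and the labels do not say whether these came from separate cultures, so that p-values measure the spread between libraries, which may be technical. The allele, the 4OHT treatment and the time since the loss of the full protein differed together between Nrde2d200 and Nrde2-KO, and they cannot be told apart, nor can the allele and other properties of an edited line. RNA levels are of whole cultures, in which fewer cells of a kind and less RNA per cell cannot be told apart.

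NRDE2 is a nuclear protein that binds U1 snRNA, the RNA of the spliceosome that pairs with the 5′ splice site (5′SS) at the start of an intron. With its partner CCDC174 it helps in the use of weak 5′SSs, those that pair poorly with U1, and its amino terminus holds the contact with the RNA helicase MTREX of the nuclear exosome, which degrades nuclear RNA. Transcripts in which a weak intron is not removed correctly often carry an early stop codon and are degraded, so that a splicing defect can lower the level of the RNA of a gene.

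Nrde2 lies on the minus strand of chromosome 12 (chr12:100125452-100159653, GRCm38) and its longest coding transcript has 14 exons and 1172 codons. The guides shown are the pair of Cas9 guides listed in the study's table of cell lines for a line with this truncation, made from a line with a tagged Nrde2 gene, and they are shown because they mark both ends of what is missing. Whether that line gave the libraries compared is not given in the sources used here. Each guide is followed in capitals by the next 3 bases of the reference.
Upstream guide (plus strand, chr12:100159581-100159600): gcaaaagccgggaacagcgcCAT
Downstream guide (minus strand, chr12:100144164-100144183): gaggaagggagactcctgccTGG
The upstream guide matched exon 1, with its cut between coding bases 6 and 7, and the downstream guide matched exon 5, with its cut between coding bases 604 and 605, in codon 202. The capitals of the downstream guide are its PAM, the motif that Cas9 needs beside its target. The capitals of the upstream guide are the reverse complement of the start codon, and the reference has no NGG PAM there.

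The 5′SSs shown are those of 3 genes studied for their splicing in these cells, which the study describes as weak or suboptimal. They stand beside the most frequent base at each position of the annotated sites that begin with GT. Each has 3 exon bases followed by 6 intron bases. Capitals mark the bases that match.
All annotated sites: CAGGTAAGT
Cdk2 intron 1 (minus strand, chr10:128704706-128704714): CAcGTgAGT
Tti1 intron 5 (minus strand, chr2:157995375-157995383): aAGGTActg
Dnmt1 intron 10 (minus strand, chr9:20932109-20932117): aAGGcAAag
Cdk2 intron 1 matched at 7 of 9 positions, and the sites of Tti1 and Dnmt1 at 5. The median over the annotated sites with GT was 6, so that by this count the Cdk2 site was not a weak one. The count weighs all positions alike. In the study, a point mutation that improved the pairing of this site with U1 made a Cdk2 reporter insensitive to the loss of NRDE2. Of the 193120 annotated sites, 16.8% of those with GT matched at 5 or fewer positions and 87.9% at 7 or fewer, and 0.931% of all sites had GC in place of GT, as at Dnmt1 intron 10.

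Nrde2 RNA itself was at 50.1 and 51.9 normalized CPM in the Nrde2d200 libraries, 18.3 and 19.5 in Nrde2-KO, and 40.2 and 38.8 in WT. Normalized CPM are the deposited CPM divided by a scaling factor of each library, and all differences below are between log2 values after adding 0.25 to them, which makes them smaller for genes of few reads. The Nrde2d200 and Nrde2-KO libraries did not overlap, and the log2 difference was 1.42 (SE 0.10, limma adjusted p = 4.7e-08). The count of a gene covers all its exons, so the remaining reads in Nrde2-KO include exons outside the deleted part. The truncated allele lacks a different part of the coding sequence, so the counts of the 2 groups are not of like RNAs. How much of the difference comes from the missing parts themselves was not tested. Neither partner passed the test. Mtrex had 174 and 158 normalized CPM in Nrde2d200 and 171 and 159 in Nrde2-KO, a log2 difference of 0.01 (95% interval −0.19 to 0.20, limma adjusted p = 0.98), and Ccdc174 had 26.7 and 24.3 against 28.2 and 28.9, a log2 difference of −0.17 (−0.41 to 0.08, limma adjusted p = 0.38).

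The 3 genes with the 5′SSs shown above had different values in the truncation. Tti1, which codes for a subunit of the TTT complex that stabilizes mTOR and related kinases, had 48.5 and 47.5 normalized CPM in Nrde2d200, 29.0 and 29.2 in Nrde2-KO, and 84.8 and 74.6 in WT. Both Nrde2d200 libraries were above both Nrde2-KO libraries and below both WT libraries. The log2 difference of Nrde2d200 from Nrde2-KO was 0.72 (95% interval 0.51 to 0.92, limma adjusted p = 0.00012). Dnmt1, the enzyme that maintains DNA methylation, had 383 and 368 normalized CPM in Nrde2d200, 287 and 285 in Nrde2-KO, and 448 and 463 in WT, in the same order. Its log2 difference was 0.39 (0.21 to 0.58, limma adjusted p = 0.006), and the adjusted p was between 0.00019 and 0.088 over 13 alternative analyses, above 0.01 in 6 of them, among these the ones without any 1 of the 4 libraries compared. Cdk2, a kinase that drives entry into S phase, had 90.1 and 84.8 normalized CPM in Nrde2d200 and 83.0 and 87.7 in Nrde2-KO, against 126 and 136 in WT. Here the Nrde2d200 and Nrde2-KO libraries overlapped, and the log2 difference of 0.03 had a 95% interval from −0.18 to 0.25 (limma adjusted p = 0.87), which lies below the interval of Tti1. The 3 genes were not tested against each other. A count per gene does not separate correctly from aberrantly spliced RNA. By RT-PCR of Cdk2, the study saw aberrant splicing in cells with the truncation that resembled the knockout but was weaker.

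**Figure D1:**
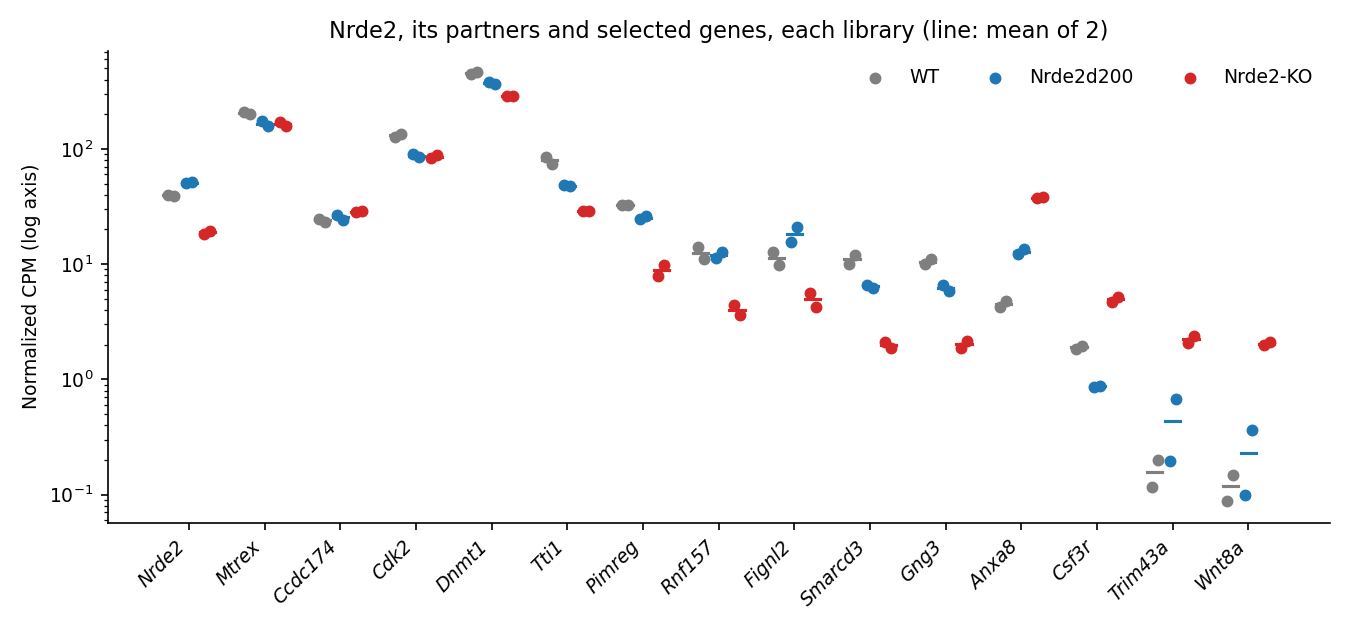
Normalized CPM (log axis) of Nrde2, its partners, the 3 genes with the splice sites shown and other genes described in the text, with 1 point per library, the mean of 2 libraries as a line, and WT, Nrde2d200 and Nrde2-KO in different colours. Cdk2 overlaps between Nrde2d200 and Nrde2-KO, whereas Tti1 and Dnmt1 lie between Nrde2-KO and WT in Nrde2d200.

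Across the 14476 genes, 129 genes (0.891%) were higher and 106 genes (0.732%) lower in Nrde2d200 than in Nrde2-KO at an adjusted p below 0.01 and a log2 difference beyond 1. At the same adjusted p and any size, 570 genes (3.94%) were higher and 251 genes (1.73%) lower. The first rule is what is meant below by called, and the second by passing the test. Of the called genes that were higher, 121 were protein coding, and of those that were lower, 90. For all 235 called genes the 2 groups of libraries did not overlap, which was also the case for 62.7% of all genes. The median log2 difference over all genes was 0.01 with an SD of 0.375, and 85.8% of genes were within 0.5 of no difference. With 1 library fewer, 129 genes were called without Nrde2-KO replicate 1, 119 without Nrde2-KO replicate 2, 133 without Nrde2d200 replicate 1 and 118 without Nrde2d200 replicate 2, so the number of calls rests on both libraries of each group. The limit on low values can itself favour a difference, since 203 of the genes reached it although their mean in Nrde2-KO was below 0.5 CPM and 286 although their mean in Nrde2d200 was, and these hold 4 of the 129 higher and 23 of the 106 lower genes.

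A second Nrde2-KO experiment, with the same 4OHT treatment and WT libraries of its own, gave a set of decreased and a set of increased genes. The contrast behind these sets holds no library of the comparison, although the spread was estimated over all libraries and the limit on low values was set on the libraries compared. With a limit set on the libraries of the second experiment itself, 349 of the genes were called decreased and 318 increased. With the limit used here, 349 genes (2.41%) were called decreased and 341 genes (2.36%) increased, and at any size 1628 (11.2%) were decreased and 1019 (7.04%) increased. The decreased genes were higher in Nrde2d200 than in Nrde2-KO nearly throughout. Of the 349 genes, 161 (46.1%) passed the test as higher and 0 as lower, against 3.94% and 1.73% of all genes, and 333 had a difference above 0. Their median log2 difference was 0.58, with quartiles of 0.41 and 0.76, and between 0.54 and 0.63 for the 4 pairs of 1 Nrde2d200 and 1 Nrde2-KO library. Side by side, their median relative to the WT mean was −0.53 in both Nrde2d200 libraries and −1.13 and −1.08 in the Nrde2-KO libraries. The median gene of this set therefore stood in Nrde2d200 between the knockout and WT, at a similar log2 distance from each.

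The increased genes were lower in Nrde2d200 than in Nrde2-KO, with fewer of them past the test. Of the 341 genes, 35 (10.3%) passed as lower and 5 (1.47%) as higher, and 295 had a difference below 0. Their median log2 difference was −0.45, with quartiles of −0.76 and −0.18, and between −0.66 and −0.33 for the 4 pairs of libraries. Relative to the WT mean their median was 0.76 and 0.98 in the Nrde2d200 libraries and 1.41 and 1.30 in the Nrde2-KO libraries. The libraries of a group were thus further apart in this set than in the decreased set. The number past the test was 12 without Nrde2d200 replicate 1, 17 without Nrde2-KO replicate 1, 18 without Nrde2-KO replicate 2, 21 without Nrde2d200 replicate 2 and 104 when only the 4 libraries compared were fitted. In the decreased set the number was 83, 74, 89 and 65 without the same libraries, and 93 with the CPM as deposited.

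**Figure D2:**
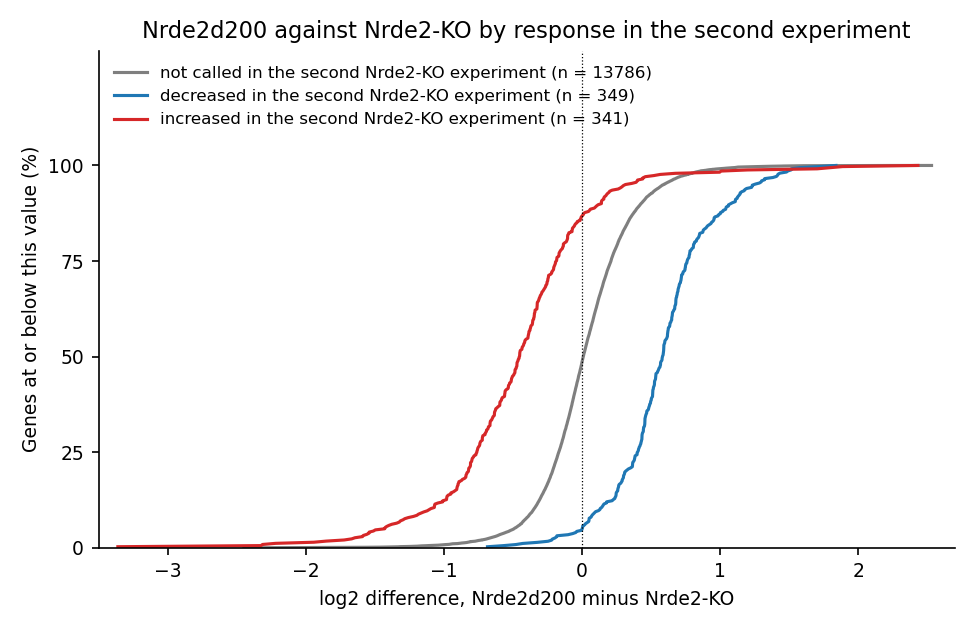
Share of genes (vertical axis, %) at or below each log2 difference of Nrde2d200 from Nrde2-KO (horizontal axis), for 349 genes decreased, 341 genes increased and 13786 genes not called in the second Nrde2-KO experiment. The curve of the decreased genes is moved to the right, with a median of 0.58, and that of the increased genes to the left, with a median of −0.45, while the other genes have a median of 0.01.

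In the second experiment 95.2% of all genes were not called, beside 2.41% decreased and 2.36% increased, and the genes called between the truncation and the knockout are set against these shares. Of the 129 genes called higher in Nrde2d200, 43 (33.3%, which is 12.3% of the decreased set) were decreased in the second experiment, 5 (3.88%) were increased and 81 (62.8%) were not called. Of the 106 genes called lower, 26 (24.5%, 7.62% of the increased set) were increased, 0 were decreased and 80 (75.5%) were not called. The 5 genes that were both increased by the knockout and still higher in Nrde2d200 were Gm11427, AI662270, Tbx18, 9830004L10Rik and Hpse.

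Among genes decreased in the second experiment, the largest increases of Nrde2d200 over Nrde2-KO were those of Fignl2, Nnat, Smarcd3, Gng3, Rnf157 and Pimreg. Smarcd3, a subunit of the SWI/SNF chromatin remodeler, had 6.65 and 6.23 normalized CPM in Nrde2d200, 2.10 and 1.88 in Nrde2-KO, and 10.1 and 12.0 in WT (log2 difference 1.58, SE 0.24, limma adjusted p = 0.00029). Gng3, a γ-subunit of G proteins, had 6.55 and 5.87 against 1.86 and 2.15, and 10.1 and 11.0 in WT (1.52, SE 0.20, limma adjusted p = 0.00012). Pimreg, a gene of dividing cells, had 24.6 and 25.9 against 7.88 and 9.88, and 32.8 and 32.4 in WT (1.49, SE 0.14, limma adjusted p = 3.1e-06). In these 3 genes the Nrde2d200 libraries lay above Nrde2-KO and below WT. The ubiquitin ligase gene Rnf157 had 11.2 and 12.7 in Nrde2d200 and 4.45 and 3.62 in Nrde2-KO, with WT libraries at 14.0 and 11.0 that overlapped those of Nrde2d200. Fignl2, a relative of the microtubule-severing ATPase fidgetin, and the imprinted gene Nnat had Nrde2d200 libraries above those of WT, with 15.7 and 21.03 against 12.8 and 9.76 in WT for Fignl2, and 7.54 and 6.05 against 3.60 and 2.61 in WT for Nnat, differences from WT that did not pass the test (limma adjusted p = 0.075 and 0.015). Both were lower in Nrde2-KO, Fignl2 at 5.59 and 4.29 (log2 difference 1.84, limma adjusted p = 0.00014) and Nnat at 2.08 and 1.70 (1.72, limma adjusted p = 0.00069).

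Among genes increased in the second experiment, the largest decreases were those of Spink5, Khdc1c, Wnt8a, Csf3r, Trim43a and Abcb5. All but Csf3r had a mean below 0.5 CPM in Nrde2d200 and reached the limit on low values only through Nrde2-KO. That limit can itself favour their decrease. Spink5, a serine protease inhibitor known from skin, had 0 reads in both Nrde2d200 libraries and 2.37 and 2.27 normalized CPM in Nrde2-KO, against 0.615 and 0.871 in WT. With 3 reads over both libraries as the limit that a count of 0 allows, it was at least 61.3-fold lower in Nrde2d200 than in Nrde2-KO (limma adjusted p = 2.4e-07), for counting error only. Khdc1c, a KH-domain gene of a family active in oocytes and early embryos, also had 0 reads in Nrde2d200, and 0.701 and 1.40 in Nrde2-KO, at least 27.7-fold lower (limma adjusted p = 0.00011). Spink5 had 197 reads in the Nrde2-KO libraries together and Khdc1c 90, so these bounds rest on few reads. Wnt8a, a Wnt ligand, had 0.0985 and 0.362 in Nrde2d200 and 1.98 and 2.11 in Nrde2-KO, with WT at 0.0879 and 0.149 (log2 difference −2.31, SE 0.34, limma adjusted p = 0.00025). Csf3r, the receptor of the growth factor G-CSF, had 0.862 and 0.878 against 4.74 and 5.20, and 1.85 and 1.94 in WT (−2.22, SE 0.27, limma adjusted p = 4.1e-05). Against WT, Spink5 was lower in Nrde2d200 (log2 difference −1.98, limma adjusted p = 6.2e-05), whereas Khdc1c (−1.15), Csf3r (−0.94) and Wnt8a (0.33) did not pass the test. Trim43a, of a family of near-identical genes and for that reason uncertain, had 0.197 and 0.672 against 2.08 and 2.36, and the transporter gene Abcb5 0.172 and 0.284 against 1.79 and 1.19.

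Of the 10 protein-coding genes with the largest increase, 3 were called in the second experiment, Fignl2 and Nnat as decreased and Tbx18 as increased. Against WT, 5 of the 10 were called higher in Nrde2d200, which were Sox11, Nwd2, Tbx18, Tent5a and Vsx1. Sox11, a transcription factor of neural progenitors whose gene has no intron, had 28.5 and 22.7 normalized CPM in Nrde2d200, 5.20 and 3.37 in Nrde2-KO, and 8.44 and 8.21 in WT (log2 difference 2.53, SE 0.26, limma adjusted p = 9.6e-06). Nwd2 had 8.69 and 13 against 1.79 and 2.41, and 0.791 and 1.22 in WT (2.23, SE 0.27, limma adjusted p = 4.4e-05). Tbx18, a T-box transcription factor, had 49.1 and 66.1 against 16.9 and 17.8, and 9.46 and 10.2 in WT (1.70, SE 0.18, limma adjusted p = 8.5e-06). For these 3 genes no Nrde2d200 library overlapped any Nrde2-KO or WT library. Tent5a, a poly(A) polymerase, had 5.07 and 6.41 against 1.72 and 1.33, and 0.996 and 0.921 in WT. Prmt8, an arginine methyltransferase of neurons (log2 difference 2.06), Tgfbi, a secreted matrix protein (2.01), the homeobox gene Vsx1 (1.85) and Plxna4, a semaphorin receptor (1.75), complete the set of protein-coding genes. For Plxna4 the Nrde2d200 and WT libraries overlapped, with 1.40 and 2.35 in Nrde2d200 and 1.70 and 1.39 in WT. Its mean in Nrde2-KO was below 0.5 CPM, and it reached the limit on low values only through Nrde2d200. That limit can itself favour its increase.

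Among noncoding genes the largest increases were those of Gm11427 (log2 difference 2.43), AI662270 (1.89), 9830004L10Rik (1.79) and Gm49451 (1.48). Gm11427, annotated as a transcribed pseudogene, had 38.5 and 33.6 normalized CPM in Nrde2d200, 7.25 and 5.75 in Nrde2-KO, and 2.26 and 2.39 in WT (SE 0.24, limma adjusted p = 5.5e-06). It overlaps AI662270 on the same strand of chromosome 11, so the reads of both are uncertain. Gm49451 had 2.12 and 2.45 against 0.629 and 0.687, and 0.322 and 0.224 in WT.

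Of the protein-coding genes with the largest decrease, 5 were not called in the second experiment, and these 5 were called lower in Nrde2d200 than in WT as well. Against WT over all genes, 257 genes (1.78%) were called higher in Nrde2d200 and 128 genes (0.884%) lower. Selenoi, the selenoprotein enzyme that makes phosphatidylethanolamine, had 6.16 and 4.78 normalized CPM in Nrde2d200, 29.4 and 32.2 in Nrde2-KO, and 26.1 and 29.3 in WT (log2 difference −2.45, SE 0.14, limma adjusted p = 4.2e-09). Smoc1, a secreted calcium-binding protein, had 2.22 and 2.33 against 11.9 and 11.9, and 13.6 and 13.8 in WT (−2.27, SE 0.14, limma adjusted p = 1.6e-08). Obox6, an oocyte-specific homeobox gene, had 0.443 and 0.749 against 2.93 and 4.17, and 3.19 and 3.36 in WT (−2.17, SE 0.22, limma adjusted p = 5.5e-06). In each of these 3 genes both Nrde2d200 libraries were far below the other 4 libraries, and the second experiment gave a log2 difference between knockout and WT of 0.18 for Selenoi, 0.00 for Smoc1 and 0.76 for Obox6. Cyp2j6, a cytochrome P450 (−2.37), and Igsf10, a secreted immunoglobulin-domain protein (−2.14), were the other 2 of the protein-coding genes. Cyp2j6 had a mean below 0.5 CPM in Nrde2d200 and reached the limit on low values only through Nrde2-KO. That limit can itself favour its decrease. Rpap3, a cochaperone that works with the TTT complex and was chosen after its values were seen, had 42.8 and 41.7 in Nrde2d200, 91.6 and 94.9 in Nrde2-KO, and 93.6 and 100.1 in WT (−1.14, SE 0.09, limma adjusted p = 6.5e-07).

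Of the genes with lower values in Nrde2d200, 4 noncoding RNAs lie side by side in the imprinted Dlk1-Dio3 region of chromosome 12 and were grouped after their values were seen. Against Nrde2-KO 3 of them were called, and against WT all 4. Rian, which holds small nucleolar RNAs, had 61.6 and 53.6 normalized CPM in Nrde2d200, 236 and 222 in Nrde2-KO, and 309 and 279 in WT (log2 difference −1.99, SE 0.28, limma adjusted p = 0.00014). Mirg, which holds microRNAs, had 8.47 and 8.04 against 36.0 and 32.7, and 29.6 and 31.7 in WT (−2.02, SE 0.20, limma adjusted p = 5.5e-06). Gm37899, annotated between them, had 4.26 and 2.64 against 15.5 and 13.7, and 10.1 and 8.86 in WT (−2.04, limma adjusted p = 0.00072). Meg3, the long noncoding RNA at the start of the cluster, had 7.39 and 6.54 against 30.9 and 24.2, and 36.5 and 28.3 in WT, with a log2 difference of −1.94 that did not pass (limma adjusted p = 0.014). The log2 differences from WT were −2.35 for Rian, −1.86 for Mirg, −1.43 for Gm37899 and −2.17 for Meg3 (limma adjusted p = 2.3e-05, 8.6e-06, 0.008 and 0.0062). The 4 transcripts are annotated side by side on the plus strand of the same imprinted region, and they are not counted as independent observations. The other noncoding genes with a large decrease were the processed pseudogene Gm48455 (−2.42) and Gm32885 (−2.25), which had 3.10 and 2.97 normalized CPM in Nrde2d200, 13.4 and 17.6 in Nrde2-KO, and 12.0 and 11.7 in WT.

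Of the 29 lists of genes with a common role that were read in the comparison, the cholesterol synthesis genes had the most members past the test. Over all genes 3.94% passed as higher and 1.73% as lower, and the counts of each list stand beside these shares. These enzymes make sterols from acetyl-CoA and are switched on together by the transcription factor SREBP2 when sterols are low. Of the 21 genes measured, 16 (76.2%) passed the test as higher in Nrde2d200 and 0 as lower, and 20 had a difference above 0. Their median log2 difference was 0.71, with medians relative to WT of −0.41 in Nrde2d200 and −1.12 in Nrde2-KO, and over 13 alternative analyses between 9 and 16 genes were higher, 0 were lower, and the median was between 0.68 and 0.77. Early in the pathway, Hmgcs1 had 364 and 357 normalized CPM in Nrde2d200, 198 and 206 in Nrde2-KO, and 440 and 438 in WT (log2 difference 0.84, limma adjusted p = 0.00012). Sqle, the squalene epoxidase of a later step, had 111 and 103 against 62.6 and 67.7, and 146 and 138 in WT (0.71, limma adjusted p = 0.00027). Both genes had all Nrde2d200 libraries between those of Nrde2-KO and WT. Fdps, which makes farnesyl diphosphate between these steps, had 13.5 and 12.9 against 6.02 and 7.13, and 20.4 and 21.4 in WT (0.99, limma adjusted p = 0.00021). The sterol demethylation enzymes Cyp51 and Msmo1 had log2 differences of 0.95 and 1.13, and Msmo1, at 194 and 192 in Nrde2d200, 85.3 and 90.5 in Nrde2-KO, and 316 and 298 in WT, was the 1 called gene of the list. Srebf2, which codes for SREBP2, was at 116 and 134 against 82.2 and 77.2 (0.64, limma adjusted p = 0.004). Among the 5 members that did not pass, Idi1 had a log2 difference of 0.65 (limma adjusted p = 0.042).

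**Figure D3:**
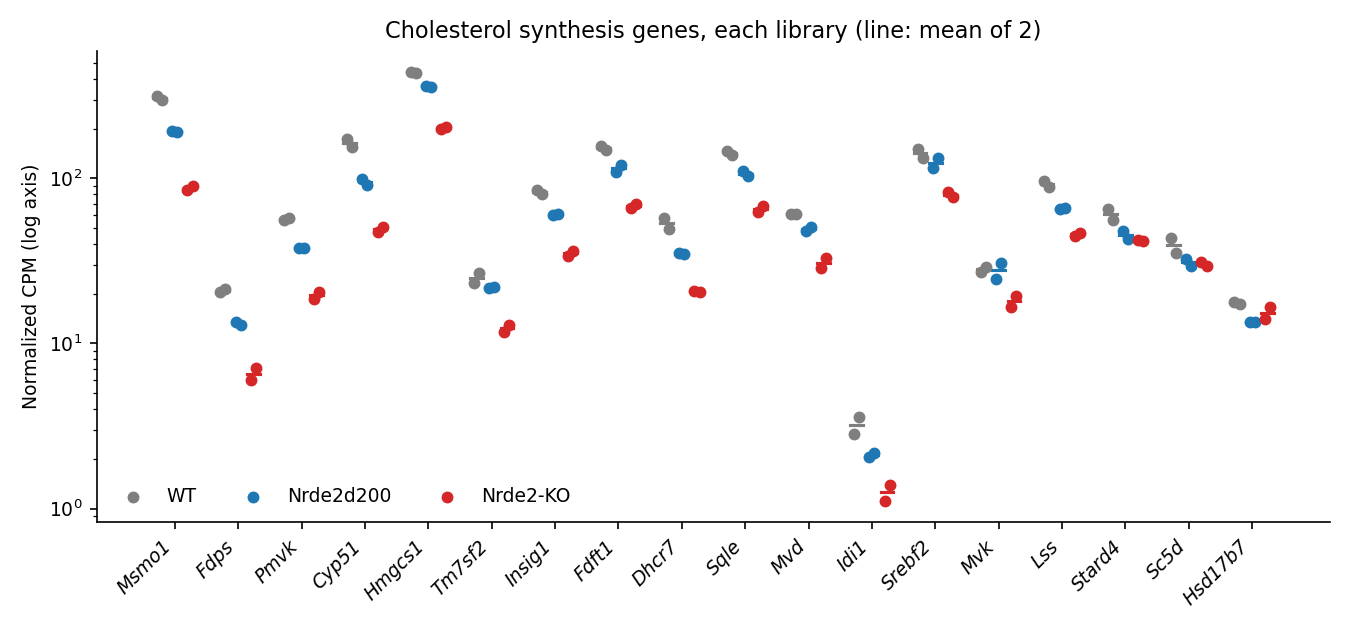
Normalized CPM (log axis) of 18 of the 21 cholesterol synthesis genes, ordered by their log2 difference, with 1 point per library, the mean of 2 libraries as a line, and WT, Nrde2d200 and Nrde2-KO in different colours. In 14 of the genes drawn Nrde2d200 passed the test as higher than Nrde2-KO, and the difference is smallest in the genes at the right.

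Of 24 glycolysis and hypoxia genes 5 (20.8%) passed as higher and 0 as lower, with a median log2 difference of 0.41. The number that passed as higher was 2 without Nrde2-KO replicate 1, 3 without any 1 of the other 3 libraries, and between 2 and 14 over 13 alternatives. Among them Hk2, the hexokinase of the first step, had 502 and 519 normalized CPM in Nrde2d200, 299 and 259 in Nrde2-KO, and 533 and 418 in WT (0.87, limma adjusted p = 0.00012). Tpi1 had 371 and 347 against 190 and 211, and 324 and 300 in WT (0.84, limma adjusted p = 0.00018), and Ldha, which makes lactate, had a log2 difference of 0.74. In Hk2 the Nrde2d200 libraries lay within the range of WT, and in Tpi1 above it. Of 28 genes of the ATF4 stress response 4 passed as higher and 0 as lower, and the median was 0.11, with between 1 and 7 higher over the alternatives. The 4 genes, 14.3% of the list, were Aldh18a1 (0.76) of proline synthesis, Psat1 (0.45) of serine synthesis, and Shmt2 (0.63) and Mthfd2 (0.53) of mitochondrial folate metabolism.

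Of 34 genes of cyclins, Cdks and their regulators 5 (14.7%) passed as higher and 0 as lower, with a median of 0.22. The number that passed as higher was 3 without Nrde2-KO replicate 2, 2 without any 1 of the other 3 libraries, and between 2 and 9 over the alternatives, and up to 3 passed as lower. The 5 genes included drivers and inhibitors of the cell cycle. The phosphatase gene Cdc25b had 28.7 and 30.1 normalized CPM in Nrde2d200, 14.8 and 14.3 in Nrde2-KO, and 28.1 and 27.0 in WT (log2 difference 1.00, limma adjusted p = 9.6e-06). Cdk4 (0.57) and its partner Ccnd3 (0.40) passed, as did the Cdk inhibitors Cdkn2c (1.40) and Cdkn1b (0.53). Of 28 p53 target genes 0 passed as higher and 4 (14.3%) as lower, with a median of −0.21. Perp, a membrane protein linked to apoptosis, had 3.50 and 2.51 against 13.1 and 10.2, and 4.89 and 5.03 in WT (−1.88, limma adjusted p = 3.1e-06), and Pmaip1, a BH3-only death protein, had 30.9 and 35.9 against 78.9 and 79.8, and 47.4 and 35.6 in WT (−1.25, limma adjusted p = 0.0004). Trp53inp1 (−0.81) and Plk2 (−0.78) also passed. Cdkn1a, which codes for the p53-induced Cdk inhibitor p21, had 95.9 and 111 in Nrde2d200 and 90.3 and 79.0 in Nrde2-KO, a log2 difference of 0.29 (95% interval −0.18 to 0.76, limma adjusted p = 0.43), and Mdm2 had −0.60 (limma adjusted p = 0.015). The number of p53 targets past the test as lower was between 2 and 12 over 13 alternatives.

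All 24 genes of the 2-cell-like state, a rare state of mESCs with genes of the cleavage embryo, had a difference below 0, with a median of −0.51. Of these 2 (8.33%) passed as lower and 0 as higher. The 2 were the zinc finger genes Zfp352, at 0.148 and 0.207 normalized CPM in Nrde2d200, 1.45 and 0.710 in Nrde2-KO, and 0.205 and 0.0747 in WT (log2 difference −1.58, limma adjusted p = 0.006), and Zfp750 (−1.24, limma adjusted p = 0.0097). Zfp352 had a mean below 0.5 CPM in Nrde2d200 and reached the limit on low values only through Nrde2-KO. Zscan4d, of a family of near-identical genes and thus uncertain, had 5.44 and 6.80 in Nrde2d200, 11.6 and 8.25 in Nrde2-KO, and 0.879 and 0.597 in WT (−0.67, SE 0.42, limma adjusted p = 0.32). The 2 Nrde2-KO libraries differed in these genes, with list medians of 2.28 and 1.80 relative to the WT mean, against 1.23 and 1.53 in the Nrde2d200 libraries. Between 0 and 12 of the genes were lower over 13 alternatives, so that the number past the test depends on the analysis.

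Of 24 naive pluripotency factors 2 (8.33%, against 3.94% of all genes) passed as higher, Tfcp2l1 (0.50) and Stat3 (0.47), 0 passed as lower, and the median was 0.04. Pou5f1, at 687 and 741 normalized CPM in Nrde2d200 and 538 and 678 in Nrde2-KO, and Nanog, at 996 and 1106 against 862 and 948, did not pass (limma adjusted p = 0.27 and 0.34). Of 19 genes of the Nodal pathway 2 passed as higher and 0 as lower, with a median of 0.23, and between 0 and 6 passed as higher over the alternatives. The 2 genes are 10.5% of the list. One of them was the Nodal inhibitor Lefty1, at 6.75 and 7.96 in Nrde2d200, 2.06 and 3.16 in Nrde2-KO, and 14.5 and 17.2 in WT (1.43, SE 0.31, limma adjusted p = 0.0053). Nodal itself had a log2 difference of −0.10 (limma adjusted p = 0.59).

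Genes of other lineages gave 1 or 2 members per list past the test in a direction. In lists this small, beside 3.94% and 1.73% of all genes, that is not read as a result about the list. Of 17 primitive endoderm genes 2 were higher, Apoe (0.99) and Sparc (0.40), of 17 trophectoderm and keratin genes Tead4 was higher (0.75) and Fgfbp1 lower (−0.90), and of 17 Wnt targets and primitive streak genes Wnt8a was lower. Medians of these lists were 0.23, −0.09 and −0.17. Of 8 neural genes Stmn2 was higher, at 83.0 and 65.96 normalized CPM in Nrde2d200 against 34.6 and 33.7 in Nrde2-KO and 139 and 125 in WT, and Map2 lower (−1.07). Of 22 germline genes Asz1 was lower (−1.35), with a list median of −0.32. Of 23 YAP-responsive genes Ccn2, a secreted matrix protein, was higher, at 107 and 129 in Nrde2d200, 38.6 and 35.6 in Nrde2-KO, and 20.04 and 18.99 in WT (1.66, limma adjusted p = 3.7e-06), Tagln2 was higher (0.79), and Nt5e (−1.33) and Ptpn14 (−0.73) were lower. Of 10 annexins Anxa8, a membrane-binding protein, was lower, at 12.1 and 13.5 against 37.4 and 38.1, and 4.28 and 4.80 in WT (−1.54, limma adjusted p = 0.00012), and Anxa11 was higher (0.83). Of 16 metallothionein and retinoid genes the retinaldehyde reductase gene Dhrs3 was higher (1.45), and of 12 interferon-stimulated genes the transcription factor gene Stat2 was higher (0.50).

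Of 21 U1 snRNP and Sm genes, 22 SR splicing factors and 29 replication and repair genes none passed the limma test at an adjusted p below 0.01, with medians of 0.02, 0.01 and −0.01. Over 13 alternatives at most 2 U1 snRNP and Sm genes passed as higher and 2 as lower, 1 SR splicing factor as higher and 0 as lower, and 2 replication and repair genes as higher and 0 as lower. Of 25 genes of NRDE2 and the nuclear exosome, Nrde2, the edited gene itself, was higher. Tent4b of this list, a poly(A) polymerase that marks RNA for the exosome, was lower (−0.35, limma adjusted p = 0.0062). Of 16 nonsense-mediated decay factors the endonuclease gene Smg6 was lower (−0.48), of 19 snoRNA host genes Snhg6 (−0.47) and Snhg17 (−0.45) were lower, and of 73 ribosomal protein genes Rpl9 was lower (−0.51). These are 6.25%, 10.5% and 1.37% of the lists in the same order, against 1.73% of all genes. Of 13 genes of the TTT complex and its kinases Tti1 was higher and Rpap3 lower, and of 16 DNA methylation enzymes Dnmt1 was higher and Uhrf2 lower (−0.68, limma adjusted p = 0.00013). Of 32 imprinted genes Nnat and Grb10 (0.48) were higher, and Rian, Mirg and Impact (−0.58) lower, and of 8 nuclear long noncoding RNAs Rian, Mirg and Pvt1 (−0.60) were lower. Rian and Mirg belong to the Dlk1-Dio3 region described above, so they are not independent observations in either list. Fibroblast markers, 11 genes with a median of 0.29, had none past the test. In 14 of the 29 lists no gene was called. Of the 72 genes of the lists that passed the test, 26 passed it without any 1 of the 4 libraries compared as well.

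**Figure D4:**
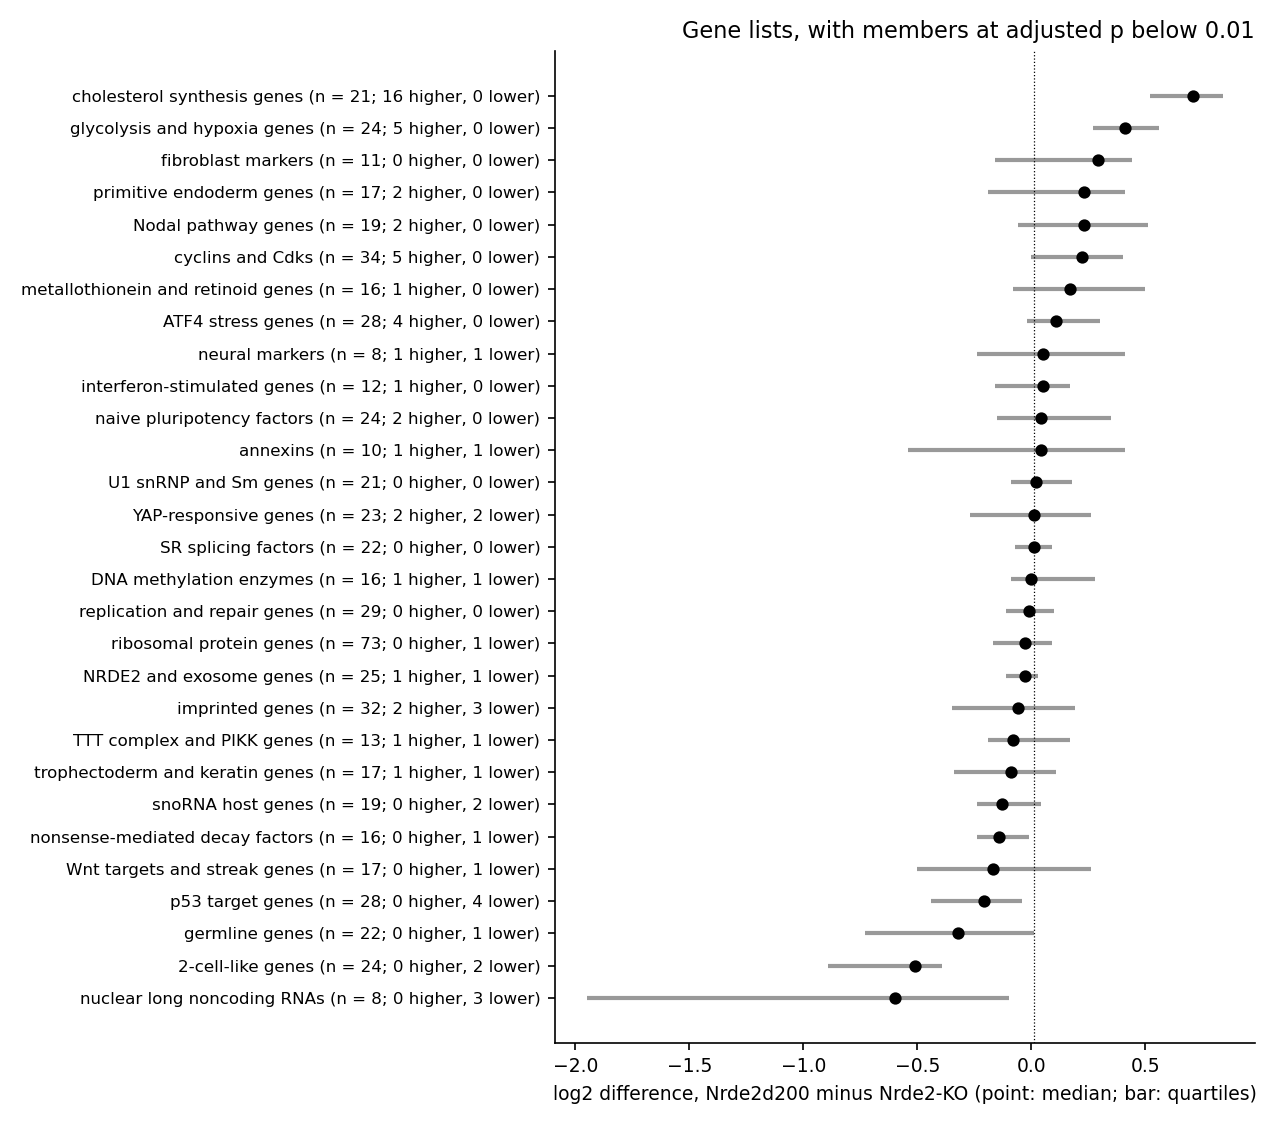
Median (point) and quartiles (bar) of the log2 difference of Nrde2d200 from Nrde2-KO for the 29 lists, with the number of genes and how many passed the test in each direction beside each name. The cholesterol synthesis genes are furthest to the right, with a median of 0.71, and the nuclear long noncoding RNAs furthest to the left, with a median of −0.60 over 8 genes. Among these 8 are Rian, Mirg and Meg3 of the Dlk1-Dio3 region, which are not independent observations.

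Gene structure was set beside the differences as a description. For 77 genes of the decreased set whose weakest annotated 5′SS matched at 4 or fewer of 9 positions, the median log2 difference of Nrde2d200 from Nrde2-KO was 0.53, for 203 genes with a weakest site of 5 matches 0.59, and for 59 genes with 6 or more 0.62. The shares that passed the test as higher were 40.3, 49.3 and 45.8%. In the increased set the medians were −0.71 for 22 genes, −0.47 for 144 and −0.39 for 107, in the same order, and the shares that passed the test as lower were 31.8, 12.5 and 6.54%. By number of introns, the medians of the decreased set were 0.56 for 1 to 3 introns, 0.67 for 4 to 9 and 0.55 for 10 or more. Long genes have more introns and thus a weaker weakest site, and these classes were not corrected for that. Genes not called in the second experiment had medians between 0.00 and 0.05 in the same intron classes, and the 315 of them without an intron had a median of 0.18. The part of single families in this class, such as the replication-dependent histone genes described below, was not tested.

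Chromosome 6 stood apart from the other autosomes, which was noticed after the values were seen. Its 734 genes had a median log2 difference of 0.17. Of these, 67 (9.13%) passed the test as higher and 6 (0.817%) as lower, against 3.94% and 1.73% of all genes. Called were 16 (2.18%) as higher and 3 (0.409%) as lower, against 0.891% and 0.732% of all genes. The medians of the other 18 autosomes were between −0.07 and 0.07. Relative to the WT mean, the median of chromosome 6 was 0.17 and 0.19 in the Nrde2d200 libraries and 0.05 and 0.03 in the Nrde2-KO libraries. In windows of 10 Mb with at least 20 genes, 11 of 12 had a median above 0, between −0.02 and 0.29 over all 12. Chromosome number was not measured, and its part in these values was not tested. Without the genes of chromosome 6, 216 genes were called, and the medians of the decreased and increased sets were 0.58 and −0.46. Prmt8, Plxna4 and the Hoxa genes lie on this chromosome. List genes past the test that lie on it include Hk2, Tpi1, Mthfd2, Cdkn1b and Tead4, which were higher, and Asz1, which was lower. The list results above include the genes of this chromosome, and its part in them was not tested.

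**Figure D5:**
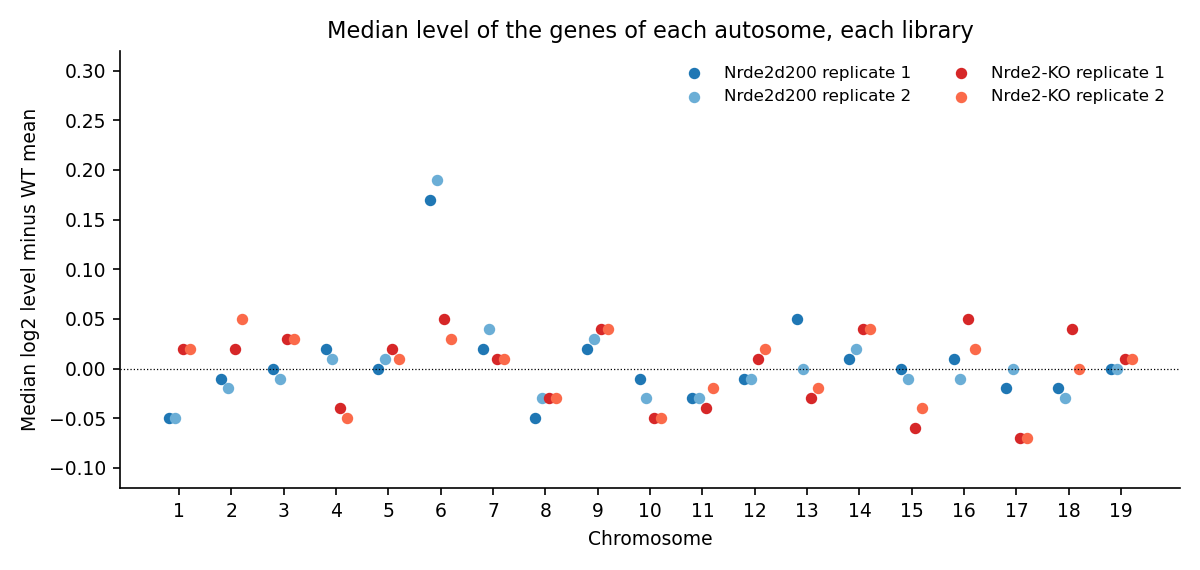
Median log2 level of the genes of each autosome relative to the WT mean (vertical axis) for each Nrde2d200 and Nrde2-KO library, by chromosome (horizontal axis). Both Nrde2d200 libraries are highest on chromosome 6, at 0.17 and 0.19.

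The libraries were checked against markers of mESCs and of cells they could contain. All 10 ES cell markers were measured and 0 passed the test, and their summed level was between 4220 and 4500 normalized CPM in Nrde2d200, 3500 and 3980 in Nrde2-KO, and 4450 and 4880 in WT. The 2-cell-like markers summed to between 10.5 and 14.0 in Nrde2d200, 16.8 and 25.5 in Nrde2-KO, and 1.69 and 2.40 in WT. Of the fibroblast markers 1 of 6 reached the limit on low values, Lum was at 0 in all 6 libraries, and the sum was between 1.90 and 2.12 in Nrde2d200 and 1.12 and 1.45 in Nrde2-KO. Of the neural markers 3 of 5 reached it, Dcx was at 0 in all 6 libraries, and the sums were between 53.3 and 61.7 in Nrde2d200 and 46.7 and 48.1 in Nrde2-KO. The primitive endoderm sums were between 18.0 and 19.4 against 18.4 and 21.4, with 4 of 6 markers at the limit or above, and the trophectoderm sums were 5.12 in both Nrde2d200 libraries against 6.28 and 9.02, with 3 of 5. The part of such cells in the results was not tested. The reads in genes were between 28878024 and 33814363 in the 6 libraries.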

How the data were processed

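RNA-seq of 20 libraries without cycloheximide was used, of which 4 were compared, 2 gave the WT level and 4 formed the second experiment. Per the labels, the authors made stranded, rRNA-depleted libraries and aligned the reads with STAR (2.7.0a and 2.7.3a in the submitters' processing notes) to mm10. They counted uniquely mapping reads per gene with featureCounts and deposited CPM. Columns are named by sample. Dividing by the value of 1 read gave whole numbers (tolerance 0.1) for 100% of values, which recovered the reads. GENCODE M21 of GRCm38 named 55154 of 55335 genes, and 181 are not in it.

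Each library's CPM were scaled by its median-of-ratios factor, and log2(CPM + 0.25) entered limma 3.58.1 (R 4.3.3) with a mean-variance trend. The 15007 genes tested, on any chromosome, had a mean of 0.5 CPM or more in the 4 libraries compared. All groups share 1 estimate of the spread. Adjusted p are Benjamini-Hochberg values over these genes. A called gene has an adjusted p below 0.01 and a log2 difference beyond 1. edgeR 4.0.16 and DESeq2 1.42.0 (minimum of 200 reads) on recovered reads were alternatives.

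Replicates were not duplicates, since the chi-square per gene between them was 9.89 to 16.2. Same-numbered replicates did not deviate together (correlation 0.037). The members, lists and rules were chosen with earlier results of these data known. Named were Nrde2, its partners and 3 spliced genes, the 10 protein-coding and 4 other genes with the largest increase and decrease, 6 genes of each second-experiment set, 5 genes per direction also beyond WT, and list members. Hoxa, Hoxd and histone genes, chromosome 6, the Dlk1-Dio3 group and Rpap3 were singled out after seeing values. Intervals have a confidence level of 95%, and limits for a count of 0 (3 reads) cover counting error only. Some members of the lists are not reported here by name.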

Additional observations from a re-analysis of the deposited data

How the results depend on the processing

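The number of genes called between Nrde2d200 and Nrde2-KO was 235, and 135 with 1 in place of 0.25 added before log2. It was between 118 and 133 with 1 library left out, where the lone library was assumed to vary like the other groups, and between 162 and 327 in the other alternatives, from no filter on low values to a fit of only the 4 libraries, with 266 from edgeR and 281 from DESeq2. Genes called higher made up 54.9% of the calls, 48.4% with the CPM as deposited and 63.0% with 1 added. The median of the decreased set was 0.58, between 0.53 and 0.62 with 1 library left out, and 0.33 when the set was defined at any size of change. The number of its genes that passed as higher was 161, between 65 and 177 with 1 library left out, 93 with the CPM as deposited, and 387 of 1628 genes with the set at any size. The median of the increased set was −0.45, between −0.57 and −0.34 with 1 library left out, and −0.28 at any size. The number of its genes that passed as lower was 35, between 12 and 32 with 1 library left out, 104 with only the 4 libraries, 53 with edgeR, 59 with DESeq2, and 102 of 1019 genes at any size. With the replicate number as a block, 256 genes were called, the medians were 0.59 and −0.45, and 168 and 46 genes passed, although the numbers do not pair the libraries. Of the values of single genes, 547 kept their side of the threshold, 48 lost it and 0 reversed, and of the list medians 354 stayed within the spread between library pairs and 23 moved. The call was lost without at least 1 library for Prmt8, Vsx1, Nnat, Tgfbi, Plxna4, Abcb5, Trim43a, 9830004L10Rik, Gm37899, Zfp352, Zfp750, Lefty1, Asz1, Nt5e, Map2, Dhrs3, Stmn2, Cdc25b and the Hox genes named here, and with DESeq2 for Khdc1c. Of the 72 list genes past the test, 46 lost it without at least 1 library and 27 without each of the 4. The cause of these changes was not tested. Depth limits genes near 0.5 CPM, which rest on few reads. The set without chromosome 6 was chosen after seeing the data.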

Other observations

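Among genes singled out after their values were seen, the replication-dependent histone genes, which code for the histones made in S phase, were higher in Nrde2d200 than in Nrde2-KO in 57 of 59 cases, with a median log2 difference of 0.60, but 0 passed the test. Their median relative to the WT mean was 0.10 and −0.17 in the Nrde2d200 libraries and −0.58 and −0.73 in the Nrde2-KO libraries, and between 0.41 and 0.81 for the 4 pairs of a Nrde2d200 and a Nrde2-KO library. These genes are near-identical copies of one another, so that single genes are uncertain.

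Hox genes, transcription factors of the body axis, were read by cluster, and the 4 clusters were not tested against each other. At the Hoxa cluster 3 of 9 genes were called and the median was 0.67, and at the Hoxd cluster 2 of 8 were called and the median was 0.94. Hoxa10 had 30.2 and 42.3 normalized CPM in Nrde2d200, 13.6 and 11.6 in Nrde2-KO, and 10.3 and 8.96 in WT (log2 difference 1.49, SE 0.27, limma adjusted p = 0.0012). Hoxa9 (1.49) and Hoxa11 (1.25) were the other 2 called Hoxa genes. Hoxd13 had 14.7 and 13.3 against 7.06 and 6.28, and 7.15 and 6.65 in WT (1.04, SE 0.18, limma adjusted p = 0.00084), and Hoxd11 had 3.52 and 3.46 against 1.21 and 0.825 (1.58). At the Hoxb cluster 0 of 4 genes passed the limma test, with a median of 0.18, and at the Hoxc cluster 1 of 9 passed, with a median of 0.38.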
